A study of Rattus norvegicus with 6 samples.

Results

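Pigc and 6 genes whose products work with it in the first step of glycosylphosphatidylinositol (GPI) anchor synthesis were followed across 6 RNA sequencing libraries of rat H9C2 cells, a line of myoblasts that came from embryonic heart. The 7 members, Pigc, Piga, Pigh, Pigp, Pigq, Pigy and Dpm2, were taken by gene name from a table of 32623 genes, and each name matched 1 row. All 7 passed the filter on low values that left 12229 genes to be tested. Pigc entered the set because its own level differed widely between groups in these libraries, so its values are given as a description, with no test. The other 6, its partners, were chosen for their place in the enzyme, and the question was whether the change of Pigc was shared by them.

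The first group, siFGFR1+HG, held cells transfected with a small interfering RNA (siRNA) against the growth factor receptor gene Fgfr1. They were then exposed to 33 mM of added glucose for 8 h. The HG group had the same glucose and time without that siRNA, and the Ctrl group was untreated. All cells were H9C2 grown in medium with 1 g/L glucose, and each group had 2 libraries. No label names a control siRNA or an osmotic control, so siFGFR1+HG may differ from HG by transfection as well as by the siRNA, and HG from Ctrl by osmolarity as well as by glucose. No label states whether the 2 libraries of a group were separate cultures, so every p-value refers to the spread between libraries, which may be technical.

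A GPI anchor is a glycolipid that holds many proteins, such as glypicans and ephrin-A ligands, on the outer face of the cell membrane. It is built in the endoplasmic reticulum, and the first step, the transfer of N-acetylglucosamine to phosphatidylinositol, is made by an enzyme of several subunits on the cytoplasmic side. Piga encodes the catalytic subunit, Pigc, Pigh, Pigp, Pigq and Pigy encode further subunits, and Dpm2 encodes a protein that binds the complex and also belongs to dolichol phosphate mannose synthase. These roles are known mainly from human, mouse and hamster cells.

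Total counts per library ran from 46960084 to 75021470. Fgfr1, the gene aimed at, had counts of 4 and 0 in siFGFR1+HG, 0 and 0 in HG, and 0 and 4 in Ctrl, and at this depth no check of the knockdown could be made. Of 10 myoblast markers, 9 were above 1 FPKM (fragments per transcript length and library size) in at least 1 library, with Myod1, the myoblast determination factor, at 62.9 to 67.4 FPKM. Of 9 tested, 0 were called higher and 2 lower in HG against Ctrl, beside 5.81% and 7.85% of all tested genes. In siFGFR1+HG against HG 1 was called higher and 4 lower, beside 14.1% and 15.9%. Between siFGFR1+HG and Ctrl 0 were called higher and 5 lower, beside 9.82% and 12.4%. The log2 values of the 9 ran from -0.83 to 0.55 in siFGFR1+HG against HG. One that fell there was Tnnt2, a troponin gene, at 75.7 FPKM in both siFGFR1+HG libraries and 125 and 127 FPKM in HG. Their summed level was 315 FPKM in both siFGFR1+HG libraries, 378 and 381 FPKM in HG, and 398 to 409 FPKM in Ctrl. Of 6 leukocyte markers 1 passed 1 FPKM in any library (Cd68, up to 1.31 FPKM), with Ptprc listed at 0, and 0 of 4 measured endothelial markers did. Of 5 epithelial markers 1 passed it: Krt8, a keratin gene, had 18.3 and 19.6 FPKM in siFGFR1+HG, 21.3 and 19.6 FPKM in HG, and 26.1 and 25.7 FPKM in Ctrl, and was called lower in HG (log2 -0.36) and in siFGFR1+HG (-0.46) than in Ctrl, while Epcam was listed at 0. The Krt8 call in HG was lost without either Ctrl library or the second HG library. The part of these markers in the results below was not tested.

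To show the start of the gene that moved beside those of 2 partners, its promoter is printed with that of Dpm2, the partner with a call, and that of Pigq, the partner with the narrowest intervals. Each is the RefSeq window of 250 bases before and 50 bases after the annotated start in the rat assembly GRCr8, read 5′ to 3′ on the strand of the gene. Capitals mark matches, on either strand, to CCGGAAG, a core of the ETS factor motif, and to GGGCGG, the GC box. The windows are chr13:76876815-76877114 on the plus strand for Pigc, chr3:36253427-36253726 on the plus strand for Dpm2 and chr10:15463039-15463338 on the minus strand for Pigq.
Pigc: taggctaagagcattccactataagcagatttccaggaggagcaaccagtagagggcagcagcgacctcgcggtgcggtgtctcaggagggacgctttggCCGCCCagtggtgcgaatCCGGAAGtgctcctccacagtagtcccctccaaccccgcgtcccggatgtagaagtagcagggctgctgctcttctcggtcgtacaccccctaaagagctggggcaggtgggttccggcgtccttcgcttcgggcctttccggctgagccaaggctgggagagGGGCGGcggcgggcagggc
Dpm2: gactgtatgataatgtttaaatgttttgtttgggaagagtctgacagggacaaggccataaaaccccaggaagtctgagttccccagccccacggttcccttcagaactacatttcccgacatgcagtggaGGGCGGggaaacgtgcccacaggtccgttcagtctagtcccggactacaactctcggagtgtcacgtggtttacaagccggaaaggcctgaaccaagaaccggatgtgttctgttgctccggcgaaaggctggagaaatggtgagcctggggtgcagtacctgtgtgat
Pigq: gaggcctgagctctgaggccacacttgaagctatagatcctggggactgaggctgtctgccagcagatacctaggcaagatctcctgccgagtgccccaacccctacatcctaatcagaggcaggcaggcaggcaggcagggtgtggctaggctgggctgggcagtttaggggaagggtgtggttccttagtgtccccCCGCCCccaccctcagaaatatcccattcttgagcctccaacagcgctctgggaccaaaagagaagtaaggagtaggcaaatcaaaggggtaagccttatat
The Pigc window held 1 ETS match, starting at base 119, and 2 GC boxes, at bases 101 and 282, with 21 CG dinucleotides and a GC content of 64.0%. Dpm2 had 1 GC box at base 132, no ETS match and 12 CG dinucleotides, and Pigq had 1 GC box at base 199, no ETS match and 3 CG dinucleotides. RefSeq gave 9 windows for the 7 members, as Piga and Pigp had 2 each, and the 2 windows of Pigp overlap, so matches are counted by gene. The ETS letters were in a window of 3 of the 7 members (Pigc, Pigh and Pigp), where 8.75% of all 33469 rat promoter windows held them. GC boxes were in 6 of the 7, where 33.1% of all windows held one. The CCAAT box (letters CCAAT, 37.5% of all windows) and the E-box (CACGTG, 6.42%) were each in 3 of the 7 and not in Pigc. The other letters searched were TGACGTCA, in 0 of the 7 members and 1.83% of all windows, TATAAA, in 1 and 14.2%, GCGNGGGCG, in 1 and 4.98%, TCACNCCAC, in 0 and 1.12%, and the NF-kB consensus, in 1 and 5.02%, and none of these was in the Pigc window. A member with 2 windows has more letters to match than the single windows of the share. These matches describe letters in a window and were not tied to binding by any measurement here.

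Pigc was low in HG and high in the other groups. Its level was 23.99 and 26.5 FPKM in siFGFR1+HG, 9.88 and 10.4 FPKM in HG, and 26.2 and 25.1 FPKM in Ctrl. Both HG libraries lay far below the other 4, which overlapped one another, and libraries of the same group stood close together. The group means were 25.3 ± 1.80 FPKM in siFGFR1+HG, 10.2 ± 0.41 FPKM in HG and 25.6 ± 0.81 FPKM in Ctrl (SD, n = 2 each). The same pattern was in the raw counts, at 2077 and 2037 in siFGFR1+HG, 931 and 896 in HG, and 2316 and 3068 in Ctrl, where the deepest library was the second of Ctrl.

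On the log2 scale Pigc differed by -1.35 between HG and Ctrl, a level in HG of 0.392 times that in Ctrl, and 57 of the 12229 tested genes had a lower value. Between siFGFR1+HG and HG it differed by 1.33, or 2.51-fold, and 102 tested genes had a higher value. Set directly against Ctrl, siFGFR1+HG differed by -0.03, a value whose sign turned with the omission of 1 library. These 3 values are not independent, since HG takes part in the first 2 comparisons and each of the others in 2. In bulk RNA, fewer cells of a type and less RNA per cell cannot be told apart. Listed fibroblast markers moved in the same directions as Pigc in HG against Ctrl and in siFGFR1+HG against HG. Of 6, 4 were tested. All 4 were called lower in HG than in Ctrl (7.85% of all tested genes were) and all 4 higher in siFGFR1+HG than in HG (14.1% were). Their summed level was 4964 to 5025 FPKM in siFGFR1+HG, 3657 to 3689 FPKM in HG and 3837 to 4100 FPKM in Ctrl, most of it from the collagen genes Col1a1 and Col3a1. Pdgfrb, a growth factor receptor gene, had 50.7 and 53.5 FPKM in siFGFR1+HG, 43.6 and 42.3 FPKM in HG, and 52.9 and 52.3 FPKM in Ctrl. Ddr2, a collagen receptor gene, had 33.6 and 36.5 FPKM in siFGFR1+HG, 23.6 and 24.1 FPKM in HG, and 28.4 and 27.4 FPKM in Ctrl. Between siFGFR1+HG and Ctrl, where Pigc was at -0.03, 3 of the 4 tested markers were called higher (9.82% of all tested genes were). These were Col1a1 (log2 0.29), Col3a1 (0.53) and Ddr2 (0.32), while Pdgfrb was at -0.02 and not called. That call of Ddr2 was lost without the second Ctrl library. The fibroblast genes Pdgfra and Dcn did not pass 0.101 FPKM. The calls of the 4 tested markers in siFGFR1+HG against HG were kept in all 14 alternative settings. In HG against Ctrl each call was lost in some settings. Omission of the first Ctrl library lost those of Col1a1, Pdgfrb and Ddr2, and of the second Ctrl library that of Ddr2. Omission of either HG library lost those of Col1a1, Col3a1 and Ddr2, and of either siFGFR1+HG library those of Col1a1 and Col3a1. On all 6 libraries, both forms of limma on log2 FPKM lost the calls of Col1a1, Col3a1 and Ddr2. The fit of only the 4 libraries compared lost those of Col1a1 and Col3a1, and the replicate block that of Ddr2. Among the 9 tested myoblast markers, Cdh15 had the signs of Pigc, at -0.26 in HG against Ctrl and 0.13 in siFGFR1+HG against HG. It is 1 gene picked from the 9, whose median had the sign opposite to Pigc in siFGFR1+HG against HG. The 9 tested myoblast markers had median log2 differences of -0.19 and -0.44 in these comparisons. In HG against Ctrl 0 were called higher and 2 lower, beside 5.81% and 7.85% of all tested genes. In siFGFR1+HG against HG, where Pigc was higher, 1 was called higher and 4 lower, beside 14.1% and 15.9%. Between siFGFR1+HG and Ctrl 0 were called higher and 5 lower, beside 9.82% and 12.4%. The part of these markers in the change of Pigc was not tested.

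**Figure D1:**
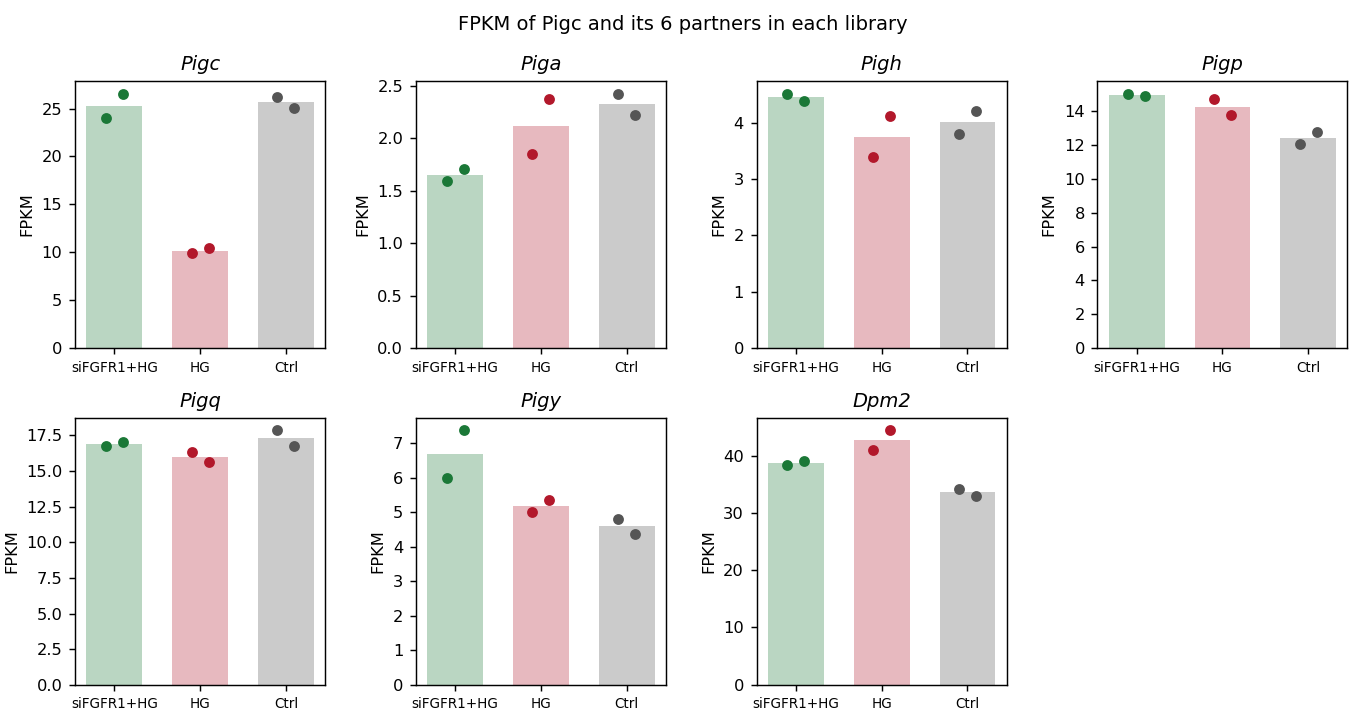
FPKM (vertical axis, starting at 0) of the 7 members in siFGFR1+HG, HG and Ctrl, with 1 point per library and bars for the mean of 2 libraries. The HG bar of Pigc, at 10.2 FPKM, stands apart from 25.3 and 25.6 FPKM in the other groups, and no partner has a drop of that size in HG.

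Piga, whose product carries the active site, was the lowest of the members. It stood at 1.59 and 1.70 FPKM in siFGFR1+HG, 1.85 and 2.37 FPKM in HG, and 2.42 and 2.22 FPKM in Ctrl. The siFGFR1+HG libraries were below all others, whereas HG and Ctrl overlapped. Between HG and Ctrl the log2 difference was -0.15 ± 0.17 (SE, n = 2 per group), with a 95% interval of -0.57 to 0.26 and a p of 0.61 in edgeR's quasi-likelihood test after Benjamini-Hochberg adjustment over all tested genes, the test used throughout. In the comparison of siFGFR1+HG with HG, where Pigc was 2.51-fold higher, Piga had a log2 value of the opposite sign, -0.34 ± 0.17 (interval -0.76 to 0.08, adjusted p = 0.19 in edgeR's test). Against Ctrl, siFGFR1+HG gave -0.50 for Piga (interval -0.91 to -0.08, adjusted p = 0.091 in edgeR's test), which did not pass the threshold of 0.05.

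Pigh, whose product binds that of Piga directly, had 4.51 and 4.39 FPKM in siFGFR1+HG, 3.39 and 4.11 FPKM in HG, and 3.798 and 4.21 FPKM in Ctrl. HG and Ctrl overlapped, and both siFGFR1+HG libraries were higher than the rest. The log2 difference of Pigh was -0.11 ± 0.14 for HG against Ctrl (interval -0.45 to 0.23) and 0.26 ± 0.14 for siFGFR1+HG against HG (interval -0.08 to 0.60), and edgeR's test called neither (adjusted p = 0.65 and 0.22). For siFGFR1+HG against Ctrl it was 0.15 (interval -0.19 to 0.49, edgeR's adjusted p = 0.51).

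Pigp, a small subunit, measured 15.0 and 14.9 FPKM in siFGFR1+HG, 14.7 and 13.8 FPKM in HG, and 12.0 and 12.8 FPKM in Ctrl. Both HG libraries were above both Ctrl libraries, the reverse of the order of Pigc. Its log2 differences were 0.18 ± 0.11 for HG against Ctrl (interval -0.09 to 0.46), 0.08 ± 0.11 for siFGFR1+HG against HG (interval -0.19 to 0.36) and 0.27 ± 0.11 when siFGFR1+HG was set against Ctrl (interval -0.01 to 0.54). None was called in edgeR's test (adjusted p = 0.34, 0.62 and 0.15).

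Pigq, which in mammalian cells stabilises the complex, had the narrowest intervals of the partners. It measured 16.7 and 17.0 FPKM in siFGFR1+HG, 16.3 and 15.7 FPKM in HG, and 17.9 and 16.8 FPKM in Ctrl. HG was the lowest group here too, but the gap to the nearest library of another group was small. The log2 difference was -0.13 ± 0.05 for HG against Ctrl (interval -0.26 to -0.0036, edgeR's adjusted p = 0.16). It was 0.09 ± 0.05 for siFGFR1+HG against HG (interval -0.04 to 0.22, edgeR's adjusted p = 0.26). For siFGFR1+HG against Ctrl it was -0.04 ± 0.05 (interval -0.17 to 0.09, edgeR's adjusted p = 0.63). In HG against Ctrl and in siFGFR1+HG against HG Pigq had the signs of Pigc. Its interval for HG against Ctrl lay wholly on the side of Pigc and ended at -0.26 on the lower side, but Pigq was not called.

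Pigy, a short subunit that binds Piga, had 5.996 and 7.36 FPKM in siFGFR1+HG, 4.99 and 5.36 FPKM in HG, and 4.81 and 4.36 FPKM in Ctrl. The 3 groups did not overlap, with HG between the other two. The log2 difference was 0.16 ± 0.16 for HG against Ctrl (interval -0.22 to 0.53, edgeR's adjusted p = 0.56), 0.38 ± 0.16 for siFGFR1+HG against HG (interval 0.01 to 0.76, adjusted p = 0.12) and 0.54 ± 0.16 for siFGFR1+HG against Ctrl (interval 0.16 to 0.91, adjusted p = 0.053). The row named Pigy lies on chromosome 8 in the table, while RefSeq gives Pigy as another name of Pyurf on chromosome 4 and Pigyl as another name of the chromosome 8 gene. Reads of such near copies may have been split between the rows, so the values of Pigy are uncertain. Pyurf had 8.32 and 8.46 FPKM in siFGFR1+HG, 8.27 and 7.69 FPKM in HG, and 7.12 and 6.99 FPKM in Ctrl, and was called in none of the comparisons (log2 0.16 for HG against Ctrl, 0.09 for siFGFR1+HG against HG and 0.24 between siFGFR1+HG and Ctrl).

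Dpm2 was the highest member and the one partner with a call. It stood at 38.4 and 39.1 FPKM in siFGFR1+HG, 41.0 and 44.4 FPKM in HG, and 34.2 and 33.0 FPKM in Ctrl. The HG libraries were the highest and the Ctrl libraries the lowest, with no overlap among groups. Dpm2 rose in HG against Ctrl by 0.33 ± 0.06 on the log2 scale, or 1.25-fold (interval 0.18 to 0.48, edgeR's adjusted p = 0.022), the direction opposite to that of Pigc. The call was lost when either Ctrl library or the second HG library was left out, where the adjusted p over the 6 omissions ran from 0.040 to 0.11. Differences of -0.13 ± 0.06 for siFGFR1+HG against HG (interval -0.28 to 0.02, adjusted p = 0.18) and 0.20 ± 0.06 for siFGFR1+HG against Ctrl (interval 0.05 to 0.35, adjusted p = 0.068) did not pass edgeR's test.

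**Figure D2:**
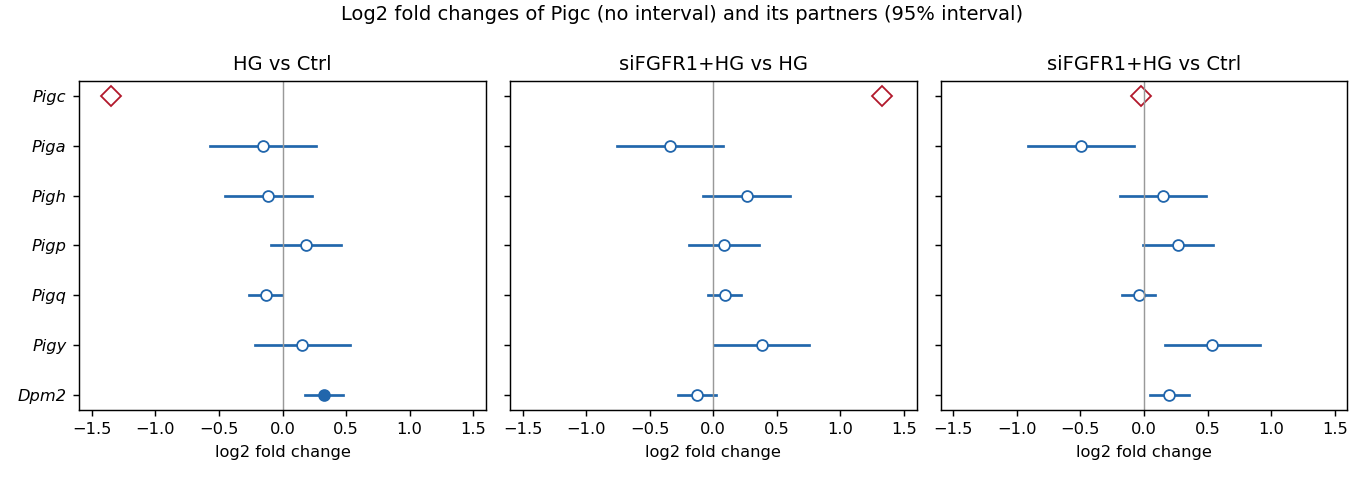
Log2 fold changes (horizontal axis) of the 7 members in 3 comparisons, with 95% intervals for the partners and none for Pigc, which was chosen for its change. Filled points passed the adjusted p threshold of 0.05. The values of Pigc, -1.35 in HG against Ctrl and 1.33 in siFGFR1+HG against HG, lie outside the intervals of all 6 partners.

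Counted together, 1 of the 6 partners was called in HG against Ctrl, where 13.7% of all tested genes were called. That 1 was higher in HG, as were 5.81% of tested genes, and 0 were lower, where 7.85% of tested genes were. At an unadjusted p under 0.05, 2 partners (Pigq and Dpm2) would count, beside 29.7% of tested genes. For siFGFR1+HG against HG 0 of 6 were called by edgeR's quasi-likelihood test, where 29.9% of tested genes were called, 14.1% higher and 15.9% lower, and DESeq2 and limma also called 0. An unadjusted p under 0.05 was reached by 1 partner (Pigy) in that comparison, beside 41.5% of tested genes. Between siFGFR1+HG and Ctrl edgeR called 0 of 6, where 22.3% of tested genes were called, 9.82% higher and 12.4% lower. There 3 partners (Piga, Pigy and Dpm2) had an unadjusted p under 0.05, beside 35.7% of tested genes. On the same libraries DESeq2 called 2 (Pigy higher, Piga lower) and limma on log2 FPKM called 3 (Pigp, Pigy and Dpm2, all higher).

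Groups of 2 libraries often do not overlap. In HG against Ctrl 3 partners were higher and 1 was lower without overlap, where 60.1% of all tested genes had non-overlapping groups, 32.9% higher and 27.3% lower. For siFGFR1+HG against HG the counts were 4 higher and 2 lower, where 66.5% of tested genes had such groups, 30.4% higher and 36.1% lower. Between siFGFR1+HG and Ctrl 4 partners were higher and 1 was lower, where 63.8% of tested genes had such groups, 32.9% higher and 30.9% lower. With 6 genes these counts are not read as a result about the partners.

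The size of the change separates Pigc from the partners in the description. In HG against Ctrl the lowest bound of any partner's 95% interval was -0.57 (Piga), or 0.674-fold, while Pigc was at 0.392-fold. In siFGFR1+HG against HG the highest bound was 0.76 (Pigy), or 1.69-fold, against 2.51-fold for Pigc. The median log2 difference of the 6 partners was 0.02, 0.09 and 0.17 in HG against Ctrl, siFGFR1+HG against HG and siFGFR1+HG against Ctrl, beside 0.00, -0.01 and 0.01 over all tested genes. Between siFGFR1+HG and Ctrl the value of Pigc lay inside the intervals of 2 partners (Pigh and Pigq) and outside those of the other 4. The difference between Pigc and a partner was not itself tested, because Pigc was chosen for it.

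The composition of the set changed with Pigc. Pigc made up 22.6% and 23.9% of the summed FPKM of the 7 members in siFGFR1+HG, 10.7% and 10.9% in HG, and 25.9% and 25.5% in Ctrl. The partners alone summed to 82.2 and 84.4 FPKM in siFGFR1+HG, 82.3 and 85.6 FPKM in HG, and 75.1 and 73.4 FPKM in Ctrl, so HG was not below either other group in their sum. On this scale per transcript length, the order in siFGFR1+HG and in Ctrl was Dpm2, Pigc, Pigq, Pigp, Pigy, Pigh and Piga. In HG it was Dpm2, Pigq, Pigp, Pigc, Pigy, Pigh and Piga, with Pigc at rank 4 in HG, against rank 2 in Ctrl. Neighbours in these orders did not overlap between libraries of a group. The ratio of Pigc to Pigq was 1.43 and 1.56 in siFGFR1+HG, 0.605 and 0.667 in HG, and 1.47 and 1.49 in Ctrl.

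Later steps of the pathway were described by 34 further genes, of which 31 were tested and Pigz, Pigg and Pgap4 were at or near 0. Of the 31, 4 rose and none fell in HG against Ctrl (12.9%, beside 13.7% of all tested genes), with a median log2 difference of 0.10. By direction, 5.81% of all tested genes rose there and 7.85% fell. The comparison of siFGFR1+HG with HG had 2 that rose and 1 that fell (9.68%, beside 29.9%), with a median of -0.09. Of all tested genes 14.1% rose and 15.9% fell in it. In siFGFR1+HG against Ctrl 4 rose and none fell (12.9%, beside 22.3%), with a median of 0.06, where 9.82% of all tested genes rose and 12.4% fell. No later gene came near the change of Pigc: their log2 values ran from -0.49 to 0.60 in HG against Ctrl and from -0.33 to 0.53 in siFGFR1+HG against HG.

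The step right after the complex is the removal of the acetyl group by Pigl, followed by flipping of the lipid, for which Clptm1l is the scramblase, and acylation of the inositol by Pigw. Of these 3 genes edgeR called 0 in each comparison. The shares called over all tested genes were 13.7% in HG against Ctrl, 29.9% in siFGFR1+HG against HG and 22.3% between siFGFR1+HG and Ctrl. One of the 3, Clptm1l (log2 0.17), had an unadjusted p under 0.05 in HG against Ctrl, as did 29.7% of all tested genes. DESeq2 called Clptm1l there, limma called 0 of the 3, and in the other comparisons every count was 0. Pigl measured 4.90 and 4.55 FPKM in siFGFR1+HG, 3.41 and 4.38 FPKM in HG, and 3.78 and 4.41 FPKM in Ctrl, with overlap between HG and Ctrl. Among the mannosyltransferases 1 of 4 tested was called in HG against Ctrl, where 13.7% of all tested genes were. It was Pigx, the partner of the first mannosyltransferase Pigm. Pigx had 49.6 and 45.6 FPKM in siFGFR1+HG, 50.04 and 46.9 FPKM in HG, and 37.9 and 35.6 FPKM in Ctrl. It rose by 0.38 ± 0.07 on the log2 scale in HG (edgeR's adjusted p = 0.017) and by 0.37 ± 0.07 in siFGFR1+HG (adjusted p = 0.011), both against Ctrl, and was at -0.01 between siFGFR1+HG and HG. Pigb, the third mannosyltransferase, had the lowest log2 value of the later genes in HG against Ctrl, -0.49 ± 0.19 (edgeR's adjusted p = 0.14). It measured 0.968 and 0.942 FPKM in siFGFR1+HG, 0.951 and 1.02 FPKM in HG, and 1.36 and 1.39 FPKM in Ctrl. Of the 3 tested genes of ethanolamine phosphate transfer (Pign, Pigf and Pigo) edgeR called 0 and limma 0. Pign had the signs of Pigc, at -0.36 in HG against Ctrl and 0.31 in siFGFR1+HG against HG (edgeR's adjusted p = 0.092 and 0.089). It was the 1 with an unadjusted p under 0.05 and a DESeq2 call in each. Of all tested genes 29.7% and 41.5% had such an unadjusted p.

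The GPI transamidase attaches the finished anchor to proteins, and all 5 of its subunits were tested. Pigs, one of them, rose by 0.20 ± 0.04 in HG against Ctrl (edgeR's adjusted p = 0.017). Pigu, another, had 10.6 and 11.0 FPKM in siFGFR1+HG, 12.6 FPKM in both HG libraries, and 10.1 and 10.6 FPKM in Ctrl. Its log2 differences of 0.27 ± 0.07 in HG against Ctrl and -0.21 ± 0.07 in siFGFR1+HG against HG, opposite in sign to Pigc, did not pass edgeR's test (adjusted p = 0.057 and 0.071), while limma called both and DESeq2 the first. Pigt, which holds the complex together, had 84.1 and 83.2 FPKM in siFGFR1+HG, 75.4 and 74.9 FPKM in HG, and 66.9 and 71.2 FPKM in Ctrl. It was higher by 0.17 ± 0.04 in siFGFR1+HG than in HG (edgeR's adjusted p = 0.021) and by 0.27 ± 0.04 than in Ctrl (adjusted p = 0.0048). The call against Ctrl was kept in all 14 alternative settings, whereas the call against HG was lost when any 1 of the 4 libraries compared was left out. Set against Ctrl, siFGFR1+HG had 3 of the 5 subunits called, Pigk (0.17), Pigs (0.18) and Pigt (0.27), all higher. Of all tested genes 22.3% were called in that comparison, 9.82% of them higher and 12.4% lower as shares of all tested genes.

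After transfer the anchor is remodelled and p24 proteins carry the product out of the endoplasmic reticulum. Mppe1, which removes an ethanolamine phosphate, had 11.1 and 10.6 FPKM in siFGFR1+HG, 12.6 and 12.8 FPKM in HG, and 9.81 and 9.56 FPKM in Ctrl. It rose by 0.37 ± 0.06 in HG against Ctrl (edgeR's adjusted p = 0.016) and fell by 0.21 in siFGFR1+HG against HG (edgeR's adjusted p = 0.047). Both were opposite in direction to Pigc, and the second call was lost in 11 of the 14 alternative settings. Pgap1, which removes the acyl chain from inositol, had 6.63 and 5.76 FPKM in siFGFR1+HG, 5.15 and 4.83 FPKM in HG, and 5.55 and 5.73 FPKM in Ctrl. It was at -0.19 ± 0.10 in HG against Ctrl and 0.32 ± 0.10 in siFGFR1+HG against HG (edgeR's adjusted p = 0.26 and 0.055), and DESeq2 called the second. Pgap2, a factor of fatty acid remodelling, was higher by 0.32 ± 0.09 in siFGFR1+HG than in HG (adjusted p = 0.043), and Tmed9, a p24 protein, by 0.22 ± 0.04 in HG than in Ctrl (adjusted p = 0.016). Of the 7 genes of dolichol phosphate mannose supply edgeR and limma called 0 in each comparison. In HG against Ctrl 3 of them (Mpdu1, Nus1 and Srd5a3) had an unadjusted p under 0.05, beside 29.7% of all tested genes. DESeq2 called 1 of the 7 (Nus1) there. The list includes Dpm1, the catalytic subunit, and Dpm3, which share an enzyme with Dpm2, at log2 values of 0.14 and 0.31 in HG against Ctrl (adjusted p = 0.30 and 0.26) beside 0.33 for Dpm2.

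These calls of later genes rested on few libraries, and some also on the tool and settings. In HG against Ctrl, Pigx and Pigs lost their call without the first Ctrl, the second Ctrl or the first HG library, Tmed9 without either Ctrl or the second HG library, and Mppe1 without any 1 of the 4 libraries compared. The omissions left between 0 and 4 of the 31 genes called. In siFGFR1+HG against HG the calls of Mppe1 and Pgap2 were lost in all 6 omissions. Mppe1 lost that call in 11 of the 14 alternatives, with DESeq2, no filter and relative log expression size factors among them. Pgap2 lost it in 9 of the 14, with no filter and the replicate block among them. In the comparison with Ctrl, siFGFR1+HG lost the calls of Pigk and Pigs when any 1 of the 4 libraries compared was left out, and that of Pigx without the second Ctrl or the first siFGFR1+HG library.

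**Figure D3:**
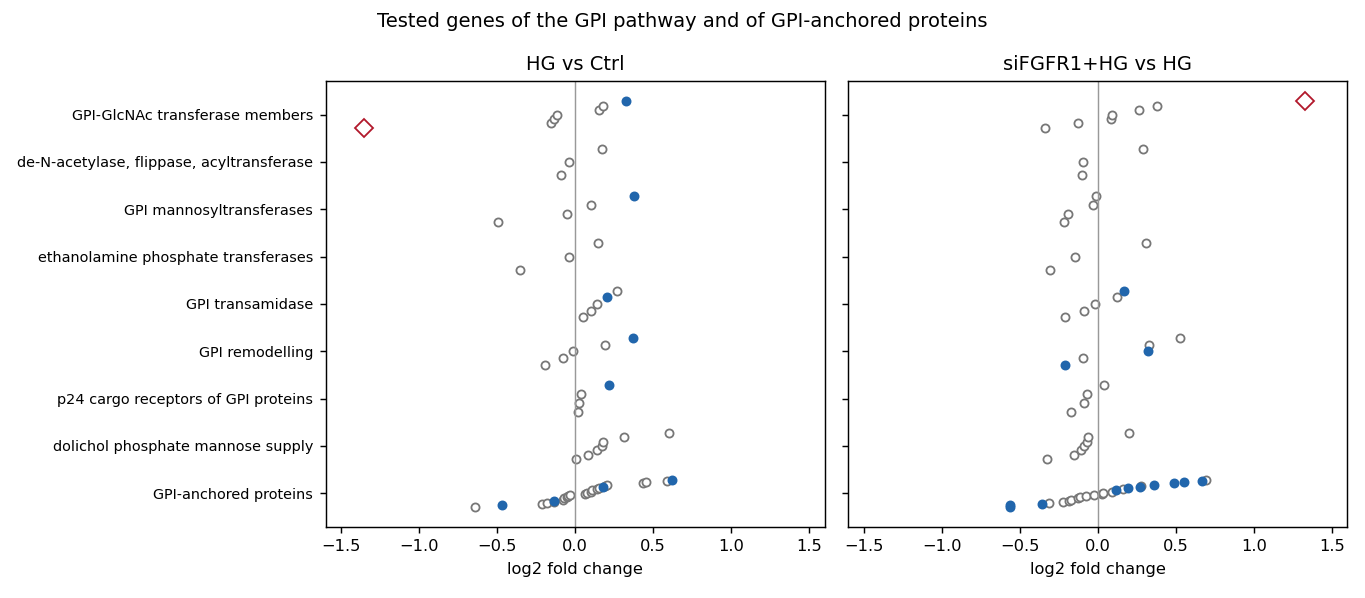
Log2 fold changes (horizontal axis) of the tested genes of each step of the GPI pathway and of GPI-anchored proteins (rows), for HG against Ctrl and siFGFR1+HG against HG. Open red diamonds are Pigc, filled points passed the adjusted p threshold of 0.05 and open circles did not. Pigc, at -1.35 and 1.33, is the outermost point in both panels.

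Proteins that carry the anchor are the products of this pathway, and 24 of 66 listed genes passed the filter. Among them 2 rose and 2 fell in HG against Ctrl (16.7%, beside 13.7% of all tested genes). Against HG, siFGFR1+HG had 7 that rose and 3 that fell (41.7%, beside 29.9%), with a median log2 difference of 0.03, and in siFGFR1+HG against Ctrl 4 rose and 2 fell (25.0%, beside 22.3%). In siFGFR1+HG against HG the 7 that rose were 29.2% of the list, beside 14.1% of all tested genes, and the 3 that fell 12.5%, beside 15.9%. The list was not tested as a set.

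Gpc6, a glypican (a heparan sulfate proteoglycan), was low in HG, as Pigc was. Its level was 20.9 and 18.6 FPKM in siFGFR1+HG, 13.6 and 13.7 FPKM in HG, and 19.8 and 17.4 FPKM in Ctrl. It fell by 0.47 in HG against Ctrl (edgeR's adjusted p = 0.017) and rose by 0.55 ± 0.08 in siFGFR1+HG against HG (adjusted p = 0.0044); the first call was lost without the first Ctrl or either HG library. Gpc1, another glypican and among the most abundant on this list, measured 253 FPKM in both siFGFR1+HG libraries, 204 and 194 FPKM in HG, and 218 and 213 FPKM in Ctrl. It rose by 0.36 ± 0.03 in siFGFR1+HG against HG (adjusted p = 7.9e-04), a call kept in all 14 alternatives, while its fall by 0.13 in HG against Ctrl (adjusted p = 0.044) was lost in 9 of them. Gpc4 went the other way, with 69.8 and 70.6 FPKM in siFGFR1+HG, 90.5 and 91.3 FPKM in HG, and 77.6 and 81.3 FPKM in Ctrl. Its log2 difference was 0.18 ± 0.04 in HG against Ctrl (adjusted p = 0.026), a call lost when any 1 of the 4 libraries compared was left out, and -0.36 ± 0.04 in siFGFR1+HG against HG (adjusted p = 0.0010), kept in all 14. Efna1, an ephrin ligand, rose by 0.62 ± 0.10 in HG against Ctrl (adjusted p = 0.014), a call lost without either Ctrl or the second HG library, and fell by 0.56 in siFGFR1+HG against HG (adjusted p = 0.0084). The other calls of siFGFR1+HG against HG were Rgmb (0.49), Cdh13 (0.19), Cd59 (0.27), Negr1 (0.67) and Thy1 (0.11), which were higher, and Ntm (-0.57), which was lower. Those of Rgmb and Cdh13 were kept in all 14 alternatives and that of Thy1 was lost in 11. Cd59 lost its call without either HG or the second siFGFR1+HG library, and Negr1 and Ntm without either HG or the first siFGFR1+HG library. Of enzymes that cleave the anchor, 1 of 4 listed was tested, Gdpd5, at log2 values of 0.15 in HG against Ctrl and -0.18 in siFGFR1+HG against HG (edgeR's adjusted p = 0.16 and 0.061).

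Pigc lies on the plus strand of chromosome 13 from 79886832 to 79889304 in the table, with 3 annotated transcripts. The partners lie on other chromosomes: Piga on X (31786194 to 31799560, minus strand), Pigh on 6 (102263337 to 102272777, minus), Pigp on 11 (34592121 to 34598275, minus), Pigq on 10 (15289536 to 15305549, minus), Pigy on 8 (23167974 to 23170209, plus) and Dpm2 on 3 (11587941 to 11590528, plus). The submitters' processing notes name a human build although the identifiers are of the rat, so the build of these positions is not known and they are not comparable with the GRCr8 windows above. No other row of the table overlapped a partner. One gene, RGD1309106 on the opposite strand, overlapped Pigc; it had counts of 10 and 3 in siFGFR1+HG and 0 in all other libraries. Whether counting used the strand is not given in the sources used here, so reads of the pair cannot be told apart, but the count of RGD1309106 was far below the 896 to 3068 counts of Pigc.

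The nearest tested genes on either side were Suco, 85.3 kb away, and Dnm3, 21.1 kb away. Suco, an endoplasmic reticulum protein gene, stood at 7.60 and 7.75 FPKM in siFGFR1+HG, 7.23 and 6.84 FPKM in HG, and 6.81 and 7.55 FPKM in Ctrl, and Dnm3, a dynamin gene, at 2.22 and 2.69 FPKM in siFGFR1+HG, 3.01 and 3.17 FPKM in HG, and 2.63 and 2.86 FPKM in Ctrl. Neither was called in HG against Ctrl (log2 -0.05 for Suco and 0.15 for Dnm3) or in siFGFR1+HG against HG (0.14 and -0.32). Another neighbour, known by the clone name AABR07021591 and 236 kb away, did follow the order of Pigc. By the listed positions it lies within Dnm3 (80125391 to 80125825 on the plus strand, inside 79910382 to 80379929 on the minus strand). As the strand setting is not given, reads of these 2 rows cannot be told apart. AABR07021591 had 11.7 and 8.92 FPKM in siFGFR1+HG, 5.47 and 4.41 FPKM in HG, and 9.41 and 8.64 FPKM in Ctrl. Its log2 difference was -0.88 ± 0.22 in HG against Ctrl (edgeR's adjusted p = 0.046), a call lost in 8 of the 14 alternatives with every omission of 1 library among them. In siFGFR1+HG against HG it was 1.07 (adjusted p = 0.014), lost without the second HG or the first siFGFR1+HG library. The rest of the 5 nearest rows on each side were listed at 0 or were under the filter. Within 2 Mb on each side 30 genes were tested: 1 rose (Prdx6, 0.34) and 1 fell (AABR07021591) in HG against Ctrl (6.67%, beside 13.7% of all tested genes), and 2 rose and 5 fell in siFGFR1+HG against HG (23.3%, beside 29.9%). The median log2 difference of the 30 was -0.01 in HG against Ctrl and -0.04 in siFGFR1+HG against HG. Part of the 30 were short rows, such as SNORD24 and SNORD81, that lie together at -1035 to -1032 kb from the middle of Pigc. None of these was called, so the shares of the window rest in part on 1 cluster.

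**Figure D4:**
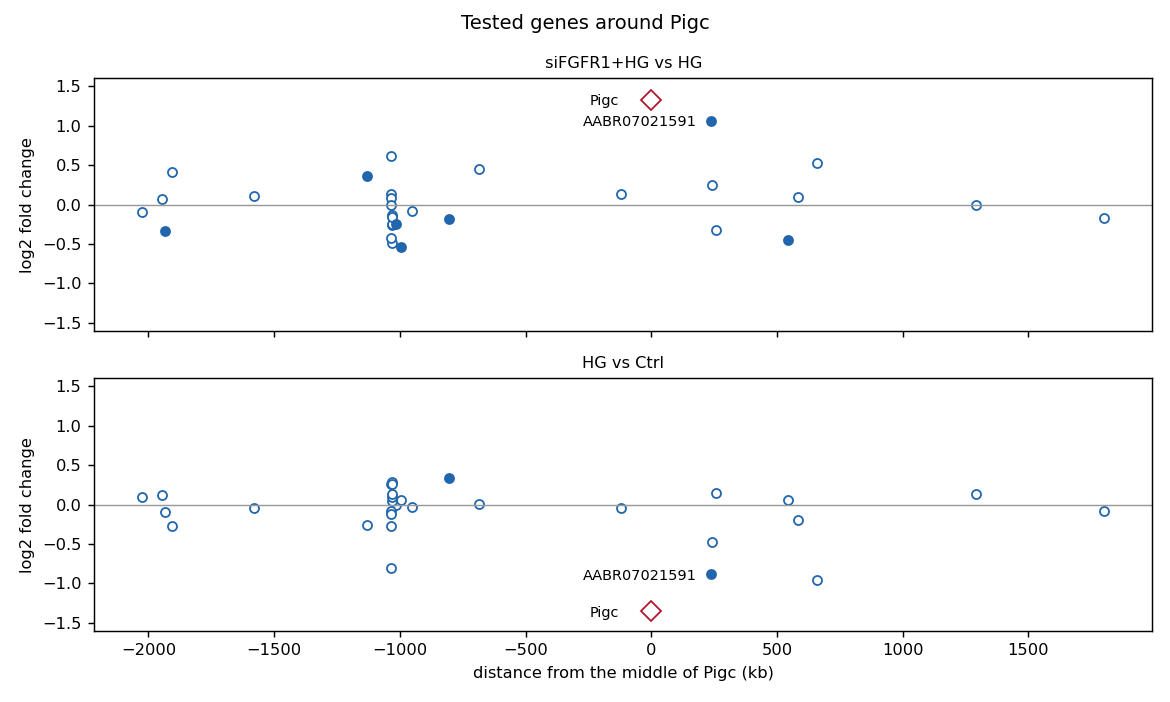
Log2 fold changes (vertical axis) of the 30 tested genes within 2 Mb of Pigc against distance from the middle of Pigc in kb (horizontal axis), for siFGFR1+HG against HG (top) and HG against Ctrl (bottom). Filled points passed the adjusted p threshold of 0.05 and the open diamond is Pigc. The labelled neighbour, AABR07021591, at 1.07 and -0.88, has the signs of Pigc.

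Genes with the profile most like that of Pigc were ranked by the root mean square difference, over the 6 libraries, between log2 CPM (counts scaled to library size) centred on the mean of each gene. Among 10314 candidates the 5 nearest were Fras1 (0.121), Soga1 (0.126), Atxn1 (0.169), Lpp (0.177) and Asb2 (0.184), on a scale where a gene with no variation is 0.633 from Pigc. Fras1, an extracellular matrix protein gene, measured 2.12 and 2.15 FPKM in siFGFR1+HG, 0.907 and 0.854 FPKM in HG, and 1.85 and 1.98 FPKM in Ctrl. Soga1 had 5.58 and 5.50 FPKM in siFGFR1+HG, 2.12 and 2.51 FPKM in HG, and 5.31 and 4.62 FPKM in Ctrl. These 5 were selected for likeness on the same libraries, so their agreement with Pigc is a description and carries no test. Distances of the partners by the same measure depend on the change for which Pigc was chosen, so they carry no test either. Pigh was the nearest partner at 0.553, with 1747 of the 10314 candidates nearer. Pigq followed at 0.580 with 2387 nearer, and Pigy stood at 0.624 with 3921 nearer. Pigp (0.669, with 5885 nearer), Piga (0.701, with 7309) and Dpm2 (0.743, with 8699) lay farther from Pigc than a gene with no variation does.

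**Figure D5:**
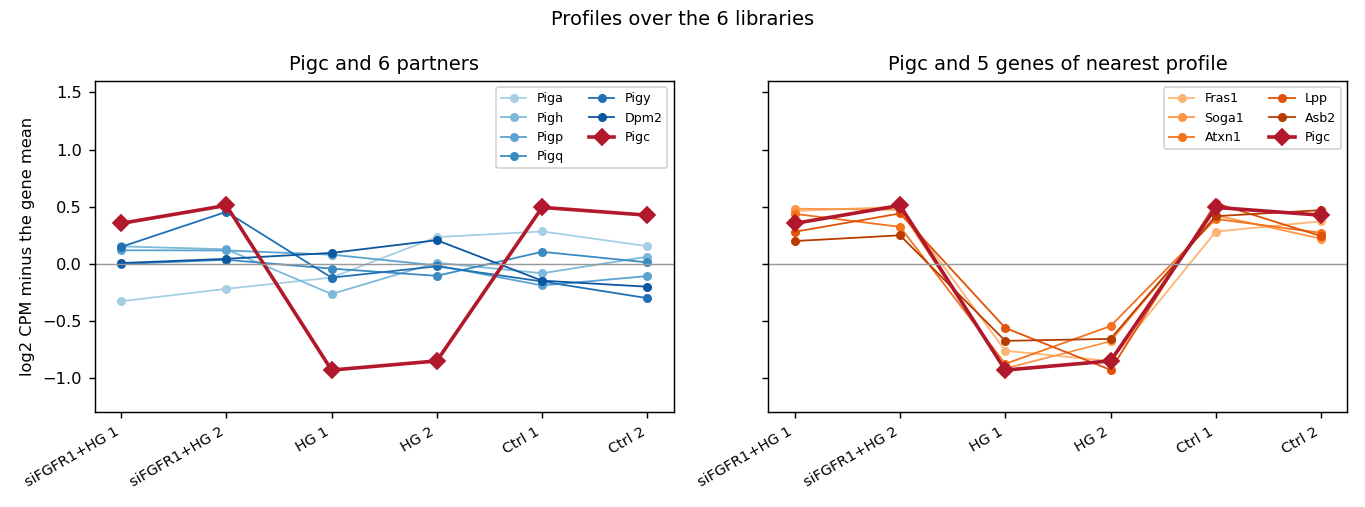
Log2 CPM minus the mean of each gene (vertical axis) in the 6 libraries (horizontal axis) for Pigc with its 6 partners (left) and with the 5 genes of nearest profile (right). Pigc dips in both HG libraries, the nearest 5 dip with it by selection, and the lines of the partners stay closer to 0.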

How the data were processed

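RNA of 6 H9C2 libraries was sequenced. Per the submitters' processing notes, the authors used fastp, HISAT2 and StringTie; versions and the strand setting are not given in the sources used here. The deposited table holds a count per gene and library, not scaled between libraries, and an FPKM value, scaled by the authors for transcript length and library size, in which 0.0001 stands for a count of 0. Small counts may come in steps of 4, so counts divided by 4 were an alternative.

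A gene was tested if 2 or more libraries had at least 1 FPKM (12229 genes). The model, in edgeR 4.0.16 (R 4.3.3), had 1 mean per group over all 6 libraries and left 3 residual degrees of freedom. TMM scaling factors ran from 0.994 to 1.01, the dispersion common to all genes was 0.0298 and the prior df was 3.44. A call is a Benjamini-Hochberg adjusted p under 0.05 over all tested genes of a comparison, with no fold limit. Standard errors after ± were worked back from the F statistic, intervals are 95% and two-sided, and FPKM errors are SDs of 2 libraries. The median standard error was 0.0869 log2 units. The fit was tested on simulated data.

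Members and gene lists were chosen with earlier results of these data known. By rule the text names all members, genes from the 3 with the smallest p of each pathway list (not all are printed) in HG against Ctrl and in siFGFR1+HG against HG, the 5 genes of nearest profile (log2 CPM with a prior count of 2; names on several rows and clone names left out), and the rows overlapping or among the 5 nearest to Pigc on each side. Pyurf, Prdx6 and the other calls named from lists were chosen after their values were seen. Promoters are from RefSeq, GRCr8. Alternatives were size factors by relative log expression, no filter, DESeq2 1.42.0, limma 3.58.1 on log2(FPKM + 1) and log2(FPKM + 0.1), counts divided by 4, only the 4 libraries compared, a replicate block and the omission of each library.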

Additional observations from a re-analysis of the deposited data

How the results depend on the processing

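Pigc kept its direction in all 14 alternatives, from -1.39 to -1.25 log2 units in HG against Ctrl and from 1.23 to 1.40 in siFGFR1+HG against HG. Same-numbered libraries showed little shared deviation from their group means. The correlations over genes were 0.059 for HG with Ctrl, -0.090 for siFGFR1+HG with HG and 0.051 for siFGFR1+HG with Ctrl. With 2 libraries per group these values cannot show whether same-numbered libraries were handled together. The replicate block gave 1153, 3253 and 2323 called genes in HG against Ctrl, siFGFR1+HG against HG and siFGFR1+HG against Ctrl, against 1670, 3661 and 2723 without it, and called 1, 0 and 0 partners, as without it. Later pathway genes called in siFGFR1+HG against HG numbered 1 under the block, without the filter and with only the 4 libraries compared, against 3. DESeq2 called 2616 genes in HG against Ctrl, and 8 and 7 later pathway genes in HG against Ctrl and in siFGFR1+HG against Ctrl, against 4 and 4. Partners called in siFGFR1+HG against Ctrl numbered 2 by DESeq2, 3 by limma with either pseudocount and 1 (Pigy) on counts divided by 4, against 0. With 1 library left out, where the lone library of a group is assumed to vary like the others, all calls ranged over 456 to 1302, 2293 to 3247 and 1379 to 2586. Partners then ranged over 0 to 1 in HG against Ctrl and stayed at 0 in the other comparisons, and later pathway genes over 0 to 4, 0 to 1 and 1 to 6. Signs turned in these fits for values near 0, which ranged from -0.34 to 0.014 for Piga and from -0.26 to 0.018 for Pigh in HG against Ctrl (positive without the first HG library), from -0.12 to 0.028 for Suco there (positive without the second Ctrl library), from -0.088 to 0.0011 for Pigq in siFGFR1+HG against Ctrl (positive without the first Ctrl library), and from -0.024 to 0.36 for AABR07021591 there (negative without the first siFGFR1+HG library). That of Pigc in siFGFR1+HG against Ctrl ranged from -0.11 to 0.047, positive without the first Ctrl or the first siFGFR1+HG library. Uncalled values near 0 also changed sign when 1 library was left out: Pigl in HG against Ctrl ranged from -0.28 to 0.076, Pigb in siFGFR1+HG against HG from -0.080 to 0.020, and in siFGFR1+HG against Ctrl Pign ranged from -0.18 to 0.066, Dpm1 from -0.066 to 0.038, Dpm3 from -0.13 to 0.104 and Pdgfrb from -0.066 to 0.021. The cause of these differences was not tested. With 2 libraries per group, the width of the partners' intervals limits what can be seen: that of Piga in HG against Ctrl still held differences from -0.57 to 0.26 log2 units.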
